A study of Mus musculus with 4 samples.

Results

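The receptors for glutamate and GABA carry most of the fast excitatory and inhibitory signals between neurons. Of the 22367 protein-coding genes of the mouse mm9 annotation, 45 encode glutamate receptors or GABA-A receptor subunits. These genes were chosen by symbol from the GENCODE M1 annotation: AMPA (*Gria*), NMDA (*Grin*), kainate (*Grik*) and delta (*Grid*) subunits of the ionotropic glutamate receptors, metabotropic glutamate receptors (*Grm*), and the GABA-A receptor subunits (*Gabra*, *Gabrb*, *Gabrg*, *Gabrr*, *Gabrd*, *Gabre*, *Gabrp* and *Gabrq*). *Grina*, which shares a symbol stem but encodes no receptor subunit, was left out. The set held 26 glutamate receptor genes and 19 GABA-A receptor genes.

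KDM5C, also named SMCX, is an X-linked enzyme that demethylates lysine 4 of histone H3, whose trimethylation marks active promoters. Its occupancy was profiled by ChIP-Seq, in which an antibody recovers the bound chromatin fragments for sequencing, in mouse epiblast-like cells (EpiLCs). The labels give the strain as C57BL/6J, whereas the methods give other backgrounds for the mutant mouse strains. All of the cells were male and carried on their single X chromosome a deletion in *Tsix*, the antisense repressor of *Xist* (XΔTsixY). WT cells had an intact *Kdm5c* gene, and the KO cells carried a deletion of *Kdm5c* exons whose mutant protein the study describes as barely detectable. Each genotype was represented by 1 anti-KDM5C immunoprecipitate and 1 input at day 2, 4 samples in all. By the label protocol these are EpiLCs as converted, and by the methods they had differentiated beyond that stage, which is not settled here. The study profiled KDM5C in these cells to learn whether it occupies *Xist*, and the receptor genes were not part of that question.

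Glutamate binds ionotropic receptors, which are cation channels built of 4 subunits, and metabotropic receptors, which signal through G proteins. GABA opens the GABA-A receptors, pentameric chloride channels that inhibit mature neurons. These genes are known for expression in neurons, and an EpiLC culture models the early embryonic epiblast before neurons form. KDM5C is itself known for its part in brain development, and *KDM5C* mutations cause X-linked intellectual disability. The peak lists carry no expression values, so neither the expression of these genes nor the identity of the cells could be checked from them.

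The WT list held 6916 peaks on assembled chromosomes and the KO list 44. Each genotype had 1 list, so the values below carry no replicate error and genotypes could not be tested against each other. The intervals given are exact Clopper-Pearson 95% intervals, and the upper limit given for a count of 0 is 3 counts of the total, both of which cover counting error only. By the study's methods and the peak names in the lists, the WT list was called on replicates, which the labels give as 1 merged sample, and the KO list on a single one, so their power to detect peaks may differ. A gene was called bound when the midpoint of a peak lay within 1 kb of an annotated transcription start site (TSS).

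In WT cells, KDM5C peaks lay at the promoters of 7 of the 45 receptor genes (15.6%, 95% interval 6.49% to 29.5%). The same rule called 24.0% of the other 22322 protein-coding genes bound, a share inside that interval. Of the bound genes, 3 encode glutamate receptors (*Grik3*, *Grid1* and *Grm6*) and 4 encode GABA-A subunits, among them *Gabra4*, *Gabra5* and *Gabrg3*. The strongest peak was that of *Gabra4*, which encodes the alpha4 subunit. In KO cells, 0 of 45 receptor genes had a promoter peak, which allows a share of up to 6.67%, beside 0.0941% of the other genes. No KO peak lay inside a receptor gene or within 5 kb of one, and the nearest KO peak was 231 kb from any receptor TSS. The WT peaks at receptor genes therefore overlapped no KO peak, although so few KO peaks were called that 0 of 45 is also near the share of the other genes.

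The sequence under these peaks is shown for the bound gene of highest score in each receptor class (*Gabra4*, *Grik3* and *Grm6*), beside the promoter of *Grin1*, which had no peak but the highest CpG ratio of the receptor genes. Each is 200 bp of the mm9 assembly, written 5′ to 3′ on the strand of the gene, with every CG dinucleotide in capitals. The stretch of *Gabra4*, at chr5:72048849-72049048 on the minus strand, has 9 CpGs and is the part of the peak nearest to its summit that lies outside the 5′UTR. The stretches of *Grik3* (chr4:125167469-125167668) and *Grm6* (chr11:50664778-50664977) lie on the plus strand, hold the summit and have 25 and 26 CpGs. The *Grin1* stretch, at chr2:25174708-25174907 on the minus strand, is the 200 bp before the TSS and has 25 CpGs.
Gabra4: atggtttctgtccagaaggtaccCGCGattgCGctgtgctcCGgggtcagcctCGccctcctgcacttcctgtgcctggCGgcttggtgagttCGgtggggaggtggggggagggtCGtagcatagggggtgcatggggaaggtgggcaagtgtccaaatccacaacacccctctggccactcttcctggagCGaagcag
Grik3: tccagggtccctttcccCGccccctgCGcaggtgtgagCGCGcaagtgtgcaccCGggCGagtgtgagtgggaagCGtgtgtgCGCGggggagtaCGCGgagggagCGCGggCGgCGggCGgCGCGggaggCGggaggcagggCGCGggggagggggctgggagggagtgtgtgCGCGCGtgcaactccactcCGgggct
Grm6: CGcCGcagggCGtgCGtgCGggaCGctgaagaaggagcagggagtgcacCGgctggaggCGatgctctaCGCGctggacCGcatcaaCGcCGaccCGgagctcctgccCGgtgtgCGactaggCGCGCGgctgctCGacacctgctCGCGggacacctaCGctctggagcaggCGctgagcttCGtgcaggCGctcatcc
Grin1: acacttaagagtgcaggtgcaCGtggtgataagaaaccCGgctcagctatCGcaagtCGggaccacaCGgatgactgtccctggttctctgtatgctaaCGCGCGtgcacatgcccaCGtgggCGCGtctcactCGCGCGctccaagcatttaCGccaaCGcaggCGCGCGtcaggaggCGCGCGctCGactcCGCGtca
CpG counts in the unbound *Grin1* stretch and in the bound *Grik3* stretch were equal. The *Gabra4* stretch held the fewest CpGs of the 4, but unlike those of *Grik3* and *Grm6* it did not hold the summit. The whole *Gabra4* peak, which had the highest score of these genes, has 49 CpGs in 756 bp.

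The CpG content of receptor promoters was measured as the ratio of observed to expected CpG within 500 bp on either side of the TSS, taking for each gene the TSS of highest ratio. Receptor genes had a median ratio of 0.6 and the other genes a median of 0.602. Bound receptor genes had a median of 0.842 (range 0.604 to 0.929), beside 0.802 for the other bound genes. Receptor genes with no peak had a median of 0.545 (range 0.142 to 0.975). The bound and unbound genes thus overlapped in CpG ratio. Among the bound genes the ratio was 0.929 at *Grik3*, 0.867 at *Grid1*, 0.842 at *Gabra5*, 0.685 at *Gabrg3*, 0.659 at *Grm6* and 0.604 at *Gabra4*. The order of these ratios did not follow the order of the scores, since *Gabra4* and *Grm6*, the pair of highest score, had the lowest ratios.

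**Figure D1:**
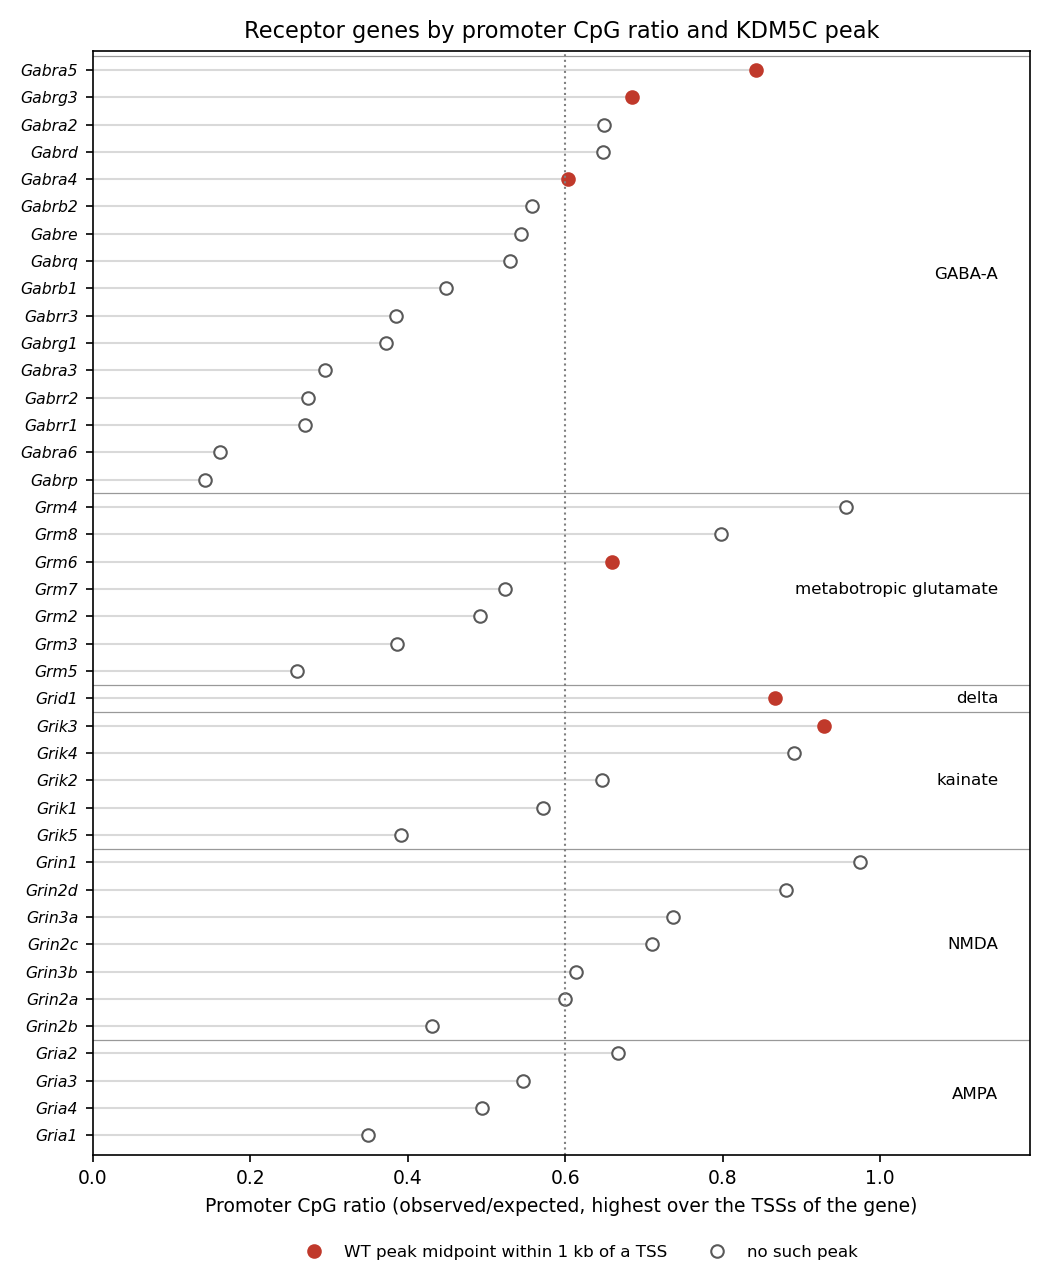
Each point is 1 of 40 receptor genes, placed by the CpG ratio of its promoter (horizontal axis, observed over expected) and grouped by receptor family, with bound genes filled, unbound genes open and a dotted line at 0.6. The 6 bound genes drawn lie between 0.604 and 0.929, and 12 unbound genes lie above the line (*Grin2a* falls just under it).

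The share of bound genes rose with promoter CpG ratio in the receptor set and among the other genes. Below a ratio of 0.6, 0 of 23 receptor genes were bound. In that range the other genes were bound at 0.0959% (ratio under 0.2), 1.51% (0.2 to 0.4) and 15.3% (0.4 to 0.6), and the receptor set held 2, 9 and 12 genes in these classes. From 0.6 to 0.8, 3 of 13 receptor genes were bound (23.1%, 5.04% to 53.8%), beside 36.8% of the other genes. From 0.8 to 1.0, 4 of 9 were bound (44.4%, 13.7% to 78.8%), beside 48.6% of the other genes. In both of these classes the share of the other genes lay within the interval of the receptor genes. Giving each receptor gene the bound share of the other genes in its class yields a count of 11.1, where 7 were observed. The 22 receptor genes with a ratio of at least 0.6 alone give a count of 9.16, and 7 of them were bound (31.8%, 13.9% to 54.9%).

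**Figure D2:**
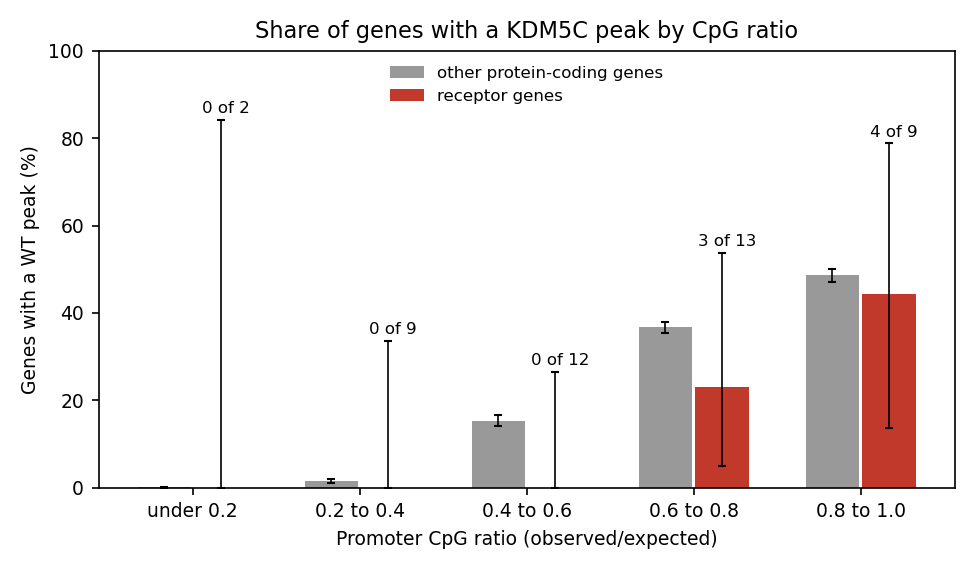
The share of genes bound in WT (vertical axis, percent) is plotted by class of promoter CpG ratio (horizontal axis) for receptor genes, with exact 95% intervals, and for the other protein-coding genes. Both rise with CpG ratio, from 0 of 23 receptor genes below 0.6 to 4 of 9 at 0.8 to 1.0.

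Peaks at bound receptor genes had scores and widths near those of the other bound genes. The median score, which MACS2 derives from −log10 of the q-value, was 84 for the highest peak of each bound receptor gene (quartiles 42 and 158, highest 389) and 90 for the other bound genes (quartiles 53 and 177). Median fold enrichment (immunoprecipitate over input, called enrichment below) was 3.71 (quartiles 3.15 and 5.22, highest 8.88), beside 3.77 for the other bound genes. Median peak width was 589 bp (range 313 to 1017), beside 548 bp. A score above the median of all WT peaks, 82, was reached by 4 of 7 bound receptor genes and by 53.3% of the other bound genes. *Gabra4* alone of the 7 exceeded the 90th percentile of 320, as did 11.6% of the other bound genes.

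Among the ionotropic glutamate receptor genes, 2 of 18 were bound, where the class shares give a count of 5.55. *Grik3* encodes the GluK3 subunit of kainate receptors, which act on both sides of the synapse. Its promoter peak, at chr4:125167069-125167785, was 717 bp wide with a score of 84 and an enrichment of 4.18. The midpoint lay 517 bp upstream of the TSS and the summit at −375 bp, in intergenic sequence. *Grid1* encodes the GluD1 subunit, a synaptic organiser that resembles glutamate receptors in sequence. It had a pair of promoter peaks on either side of the TSS. The upstream peak, at chr14:35632555-35632867, was 313 bp wide with a score of 49 and an enrichment of 2.97, and its midpoint lay 300 bp upstream. The downstream peak, at chr14:35633471-35634303, was 833 bp wide with a score of 44 and an enrichment of 3.2, and its midpoint lay 876 bp downstream, with the summit in an intron. The upstream peak scored higher than 25.7% of WT peaks and the downstream one higher than 21.3%, so both were in the lower part of the list.

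None of the 4 AMPA receptor genes, *Gria1* to *Gria4*, which encode the channels of fast excitatory transmission, was bound, where the class shares give a count of 0.689. Nor was any of the 7 NMDA receptor genes, *Grin1*, *Grin2a*, *Grin2b*, *Grin2c*, *Grin2d*, *Grin3a* and *Grin3b*, where they give 2.38. With 7 genes, a count of 0 allows a bound share of up to 42.9%, so a lower share than that of other genes was not detectable. The other unbound ionotropic genes included the kainate receptor genes *Grik1*, *Grik2*, *Grik4* and *Grik5*.

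Among the metabotropic receptors, 1 of 8 was bound, where the class shares give 1.93. *Grm6* encodes the receptor through which ON bipolar cells of the retina sense glutamate released by photoreceptors. Its peak, at chr11:50664599-50665166, was 568 bp wide with a score of 230 and an enrichment of 6.27, higher in score than 83.9% of WT peaks. The summit lay 390 bp downstream of the TSS in coding sequence, and the peak itself had a CpG ratio of 0.958, the highest of the promoter peaks at receptor genes. The CpG ratio of the *Grm6* peak was thus above the 0.659 measured around its TSS. Metabotropic receptor genes with no promoter peak included *Grm2*, *Grm3*, *Grm4*, *Grm5*, *Grm7* and *Grm8*.

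The GABA-A receptor genes had 4 of 19 bound (21.1%, 6.05% to 45.6%), where the class shares give a count of 3.65. The corresponding values for all glutamate receptor genes were 3 of 26 (11.5%, 2.45% to 30.2%) and 7.48. These intervals overlap widely. *Gabra4* had the peak of highest score among receptor promoters, 389 (−log10 q of 38.9), with a fold enrichment of 8.88 over 756 bp at chr5:72048819-72049574. Its summit lay 299 bp downstream of the TSS in the 5′UTR, and the score exceeded that of 92.5% of WT peaks. *Gabra5* encodes the alpha5 subunit, best known from extrasynaptic receptors of the hippocampus. Its peak was the widest, 1017 bp at chr7:64764288-64765304, with a score of 87 and an enrichment of 3.71, and its midpoint lay 583 bp downstream of the TSS. *Gabrg3*, which encodes the gamma3 subunit, had a peak of 589 bp at chr7:64642200-64642788 with a score of 35 and an enrichment of 3.33. The midpoint of that peak lay 64 bp from the nearest annotated TSS of *Gabrg3*, and the TSS of *Gm9962*, an annotated protein-coding gene on the opposite strand, lay within 1 kb of it, so the peak cannot be assigned to one of the pair.

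**Figure D3:**
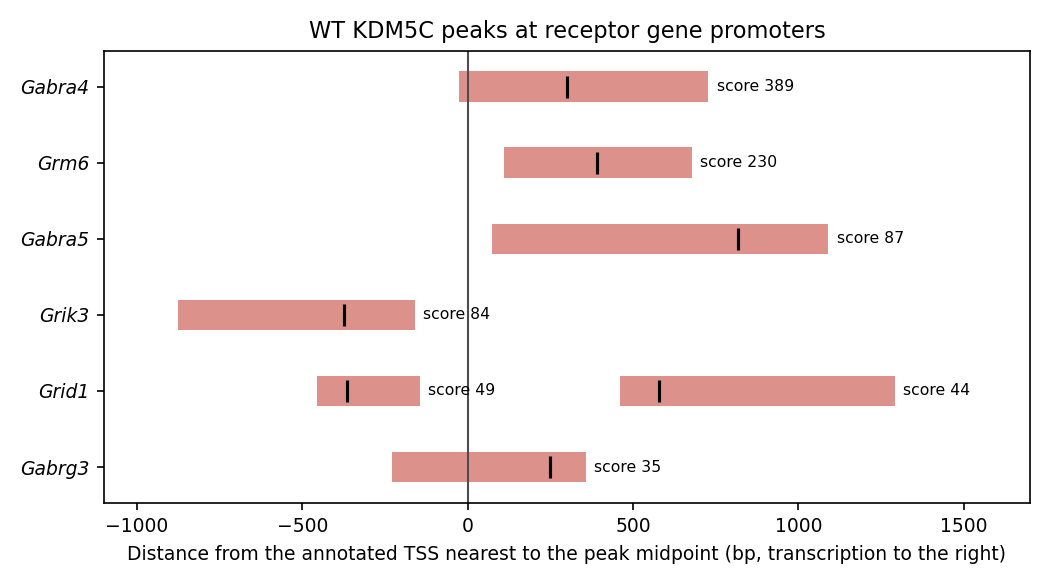
Bars show the promoter peaks of 6 bound receptor genes against the TSS (horizontal axis, bp in the direction of transcription), labelled with their scores, with black ticks at the summits. Scores range from 35 at *Gabrg3* to 389 at *Gabra4*, and *Grid1* has a peak on each side.

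The unbound GABA-A genes included *Gabra2*, *Gabra3*, *Gabra6*, *Gabrb1*, *Gabrb2*, *Gabrg1*, *Gabrr1*, *Gabrr2*, *Gabrr3*, *Gabrd*, *Gabre*, *Gabrp* and *Gabrq*. The rho subunits, encoded by *Gabrr1* to *Gabrr3*, are known from the retina, and the delta subunit, encoded by *Gabrd*, from extrasynaptic receptors. The X-linked receptor genes *Gria3*, *Gabra3*, *Gabre* and *Gabrq* were unbound, beside 8.51% of the other X-linked genes being bound. The class shares give 0.474 for these receptor genes. Those shares come from all chromosomes, and for the 928 other X-linked genes they give 155 where 79 were bound.

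Most GABA-A genes lie in clusters. The chromosome 5 cluster of *Gabrg1*, *Gabra2*, *Gabra4* and *Gabrb1*, which spans 1387 kb, had 1 of 4 genes bound, *Gabra4*, and that peak was the single WT peak inside it. The X-linked cluster of *Gabre*, *Gabra3* and *Gabrq* had 0 of 3 bound, with the nearest peaks 439 kb and 386 kb away. *Gabrr2* and *Gabrr1* on chromosome 4 were unbound, with peaks 31.6 kb and 25.6 kb from the ends of the pair. *Gabra5* and *Gabrg3* lie near each other on chromosome 7, and neighbouring genes are not independent observations.

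**Figure D4:**
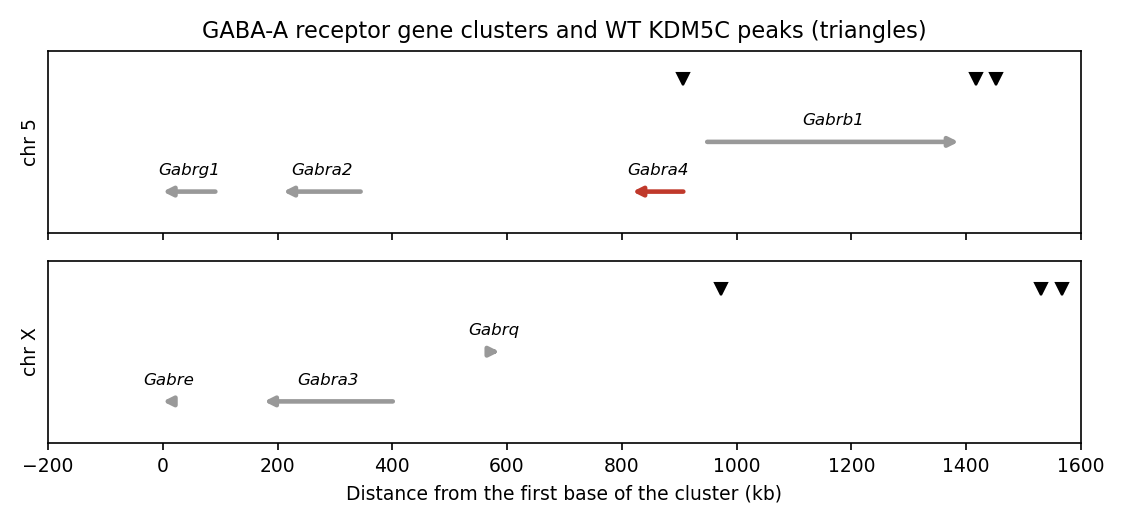
Arrows show the GABA-A receptor genes of the clusters on chromosomes 5 and X in the direction of transcription, bound genes in red and unbound genes in grey, and triangles mark WT KDM5C peaks against distance from the start of the cluster (horizontal axis, kb). The chromosome 5 cluster has a single peak inside it, at *Gabra4*, and the X-linked cluster has none.

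Several CpG-rich receptor promoters had no peak. Of the 38 unbound genes, 15 had a ratio of at least 0.6, and the 4 of highest ratio were *Grin1* (0.975), *Grm4* (0.957), *Grik4* (0.89) and *Grin2d* (0.88). *Grin1* encodes the subunit that every NMDA receptor contains. From the TSS that gave this ratio, the nearest WT peak was 53418 bp away at *Grin1*, 42392 bp at *Grm4*, 295708 bp at *Grik4* and 30727 bp at *Grin2d*. GC content at these CpG-rich unbound promoters ran from 50.9% to 75.4% with a median of 58.7%, and at the bound promoters from 59.2% to 74.7% with a median of 62.2%. The ranges overlapped.

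The start sites of many unbound receptor genes lay far from any WT peak. The distance from the closest of their TSSs to a WT peak had a median of 291 kb (range 7.27 to 3180 kb), beside 88.8 kb for the other unbound genes. Among unbound genes with a CpG ratio of at least 0.6, the medians were 122 kb for 15 receptor genes and 58.8 kb for the others. Distances above 100 kb were found at 23 of 38 unbound receptor genes (60.5%) and at 46.8% of the other unbound genes. These medians were not tested, and clustered receptor genes share their nearest peaks. The distance runs from the TSS and not from the gene. *Grik4* (288 kb) and *Grm5* (327 kb) therefore count as far, although each held a WT peak inside the gene. Receptor genes are also longer, with a median of 135 kb against 15.4 kb for the other genes. Each bound receptor gene had a peak midpoint within 583 bp of a TSS, with the second peak of *Grid1* at 876 bp, and the nearest midpoint of an unbound one lay at 7.27 kb, at *Grin2c*. At the far end was the AMPA receptor gene *Gria3*, at 3180 kb.

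Away from start sites, a further group of peaks lay inside glutamate receptor genes. WT peaks more than 1 kb from every annotated TSS were found inside 7 of the 45 receptor genes (15.6%, 6.49% to 29.5%), beside 3.32% of the other genes. Receptor genes are long, with a median length of 135 kb against 15.4 kb for the other genes, so the shares were also read by length. In genes under 30 kb, 2 of 10 receptor genes had such a peak (*Grin2c* and *Grm2*), beside 2.67% of the others, and at 30 to 100 kb 1 of 10 (*Grik5*), beside 3.60%. At 100 to 300 kb it was 2 of 10 (*Grik3* and *Grm3*), beside 6.17%, and at 300 kb and over 2 of 15 (*Grik4* and *Grm5*), beside 9.36%. The length class shares together give a count of 2.65, where 7 were observed. All 7 genes encode glutamate receptors, 7 of 26 (26.9%, 11.6% to 47.8%), and 0 of 19 GABA-A genes had an inner peak, which allows a share of up to 15.8%, a split that was noticed after the values were seen. The length classes give 1.77 and 0.881 for these groups.

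These 7 genes held 8 inner peaks, of which 7 had the summit in coding sequence (87.5%, 47.3% to 99.7%). Of 804 such peaks in other genes, 51.6% did, a share also within that interval. The summit lay in the last exon in 4 of 8 (50%, 15.7% to 84.3%), beside 27.5% of 789 such peaks in other genes, a share within that interval. Exons were those of the longest protein-coding transcript, and genes where it had a single exon were left out of the 789. *Grin2c*, which encodes the GluN2C subunit of cerebellar NMDA receptors, held a pair. The peak in exon 5 of 15, at chr11:115119204-115119748, had a score of 785 and an enrichment of 11.6, above every promoter peak of the receptor genes. The peak in exon 15, the last, at chr11:115111177-115111916, had a score of 220 and an enrichment of 5.68. *Grik5*, which encodes the GluK5 kainate subunit, had a peak in exon 20 of 20 at chr7:25795276-25795772 with a score of 164 and an enrichment of 4.59. That peak lay 61.9 kb from the TSS of *Grik5*, and an inner peak near the end of a gene can lie closer to the TSS of another gene than to that of its own. *Grik4*, which encodes the GluK4 kainate subunit, had a peak in exon 21 of 21 with a score of 105 and an enrichment of 5.36.

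Inner peaks also lay in metabotropic receptor genes. *Grm5*, a postsynaptic receptor, had one in exon 7 of 7 with a score of 94 and an enrichment of 4.07. *Grm3* had one in exon 3 of 6 with a score of 83 and an enrichment of 4.69, and *Grm2* one in exon 4 of 6 with a score of 28 and an enrichment of 2.72. The 2 encode autoreceptors that lower glutamate release. The sole inner peak outside coding sequence lay in an intron of *Grik3*, 44.3 kb from its TSS, with a score of 64 and an enrichment of 4.05, and its CpG ratio of 0.212 was the lowest of the 8. Their median score was 99.5, beside 73 for inner peaks of other genes. The median CpG ratio of the 8 peaks was 0.756, beside 0.693 for inner peaks of other genes and 0.778 for those of them with the summit in coding sequence, and their median GC content was 66% beside 62.4%. *Grik3* was the one receptor gene with both a promoter peak and an inner peak, so 13 receptor genes had either kind and 32 had neither.

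Sequence from the coding exons under the 3 inner peaks of highest score is shown in 120 bp stretches that hold the summit, on the minus strand on which these genes lie, with CG dinucleotides in capitals. The stretches are chr11:115119412-115119531 in exon 5 of *Grin2c*, chr11:115111387-115111506 in its exon 15, and chr7:25795406-25795525 in exon 20 of *Grik5*.
Grin2c exon 5: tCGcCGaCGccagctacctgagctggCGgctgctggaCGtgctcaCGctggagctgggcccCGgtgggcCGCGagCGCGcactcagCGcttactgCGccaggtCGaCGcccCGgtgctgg
Grin2c exon 15: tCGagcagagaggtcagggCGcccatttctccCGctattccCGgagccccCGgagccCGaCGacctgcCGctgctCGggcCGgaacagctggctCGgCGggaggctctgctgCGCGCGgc
Grik5 exon 20: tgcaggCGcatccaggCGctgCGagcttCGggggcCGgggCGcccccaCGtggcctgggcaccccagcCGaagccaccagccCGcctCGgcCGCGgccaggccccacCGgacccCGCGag
They hold 16, 15 and 15 CpGs. The 200 bp *Gabra4* stretch held fewer, but it did not hold the summit of its peak.

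**Figure D5:**
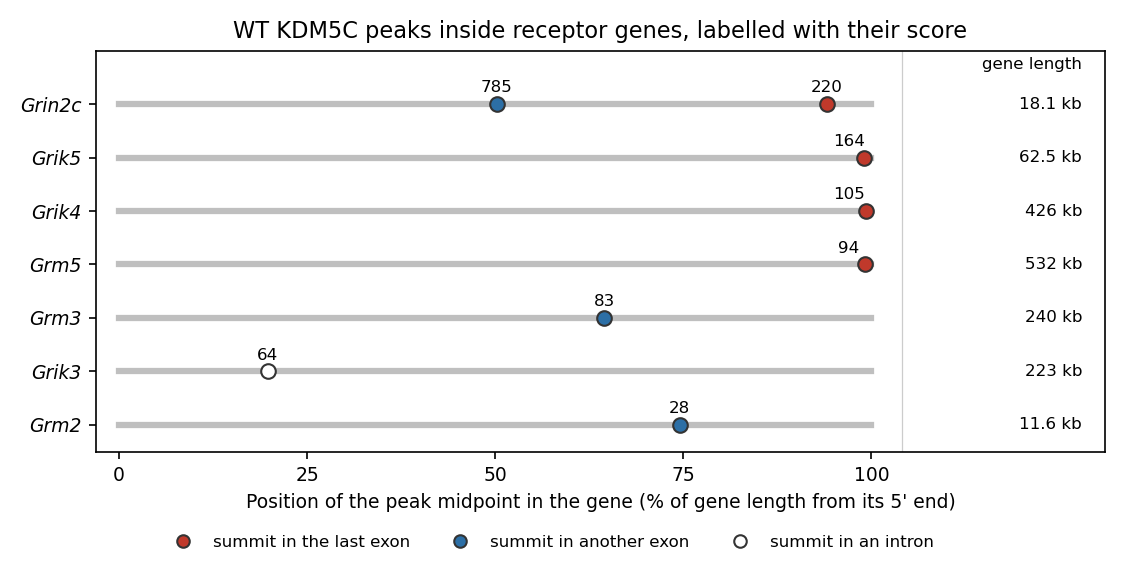
Points mark the midpoints of WT peaks inside 7 glutamate receptor genes, more than 1 kb from any annotated TSS, along the length of each gene (horizontal axis, percent from the 5′ end), with scores above the points and gene lengths at the right. Scores run from 28 in *Grm2* to 785 in *Grin2c*, and 4 of the 8 summits lie in the last exon.

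Short motifs were counted on both strands within 500 bp on either side of the most upstream TSS. The GC box GGGCGG, known as the site of SP family factors, was present at 7 of 7 bound and 22 of 38 unbound receptor genes, and at 60% of the other genes or 88.3% of those with a CpG ratio of at least 0.6. The E-box CACGTG, known as a site of basic helix-loop-helix factors, was present at 7 of 45 receptor genes, 1 of them bound (*Grid1*), and at 17% of the others. REST, a repressor of neuronal genes that has been described together with KDM5C, recognises a long element with the parts CAGCACC and GGACAG. These parts in this order with 2 bases between them stood at 1 of 45 receptor genes, the unbound *Grin1*, and at 0.108% of the others. In *Grin1* this match lies at chr2:25174534-25174554 on the minus strand, 153 to 173 bp downstream of the TSS in the 5′UTR, with both parts in capitals.
Grin1 match: ttCAGCACCtcGGACAGcacc
Within 150 bp on either side of the summits at bound receptor promoters, the GC box was present at 6 of 7, beside 53.8% of all WT peaks, and the E-box at 0 of 7, beside 20.6%. The set of all WT peaks also holds peaks away from promoters, whereas all 7 genes had CpG ratios of at least 0.604. The shares are thus not from like sets. The REST parts in that order stood at 0 of 7, beside 0.0289% of WT peaks.

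Genes that act with these receptors were compared through a list of 65, grouped by role. Of these, 19 were bound in WT (29.2%, 18.6% to 41.8%), where their CpG class shares give a count of 19.5, and 0 were bound in KO. Auxiliary subunits of ionotropic glutamate receptors had 3 of 13 bound, where class shares give 4.53. They were *Cnih3*, a cornichon protein of AMPA receptors, with a score of 616, *Neto2*, a kainate receptor subunit, with a score of 502, and *Shisa6* with a score of 41. The scores of *Cnih3* and *Neto2* were above those of all 7 bound receptor genes. Glutamate receptor scaffolds had 5 of 21 bound, where class shares give 6.61. These were *Dlgap2* (score 145), *Pick1* (score 94), *Shank3* (score 75), *Dlgap4* (score 45) and *Grip1* (score 35). GABA receptor scaffolds had 2 of 4 bound, where class shares give 1.37. These were *Gphn*, which encodes gephyrin, with a score of 197, and *Nlgn2*, an adhesion protein of inhibitory synapses, with a score of 70.

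Of the transporters, 2 of 8 for glutamate were bound, where class shares give 1.83. These were *Slc1a2*, the main glial uptake carrier, with a score of 88, and *Slc1a1* with a score of 81. For GABA, 2 of 5 were bound, where class shares give 0.919. These were *Slc32a1*, which fills synaptic vesicles, with a score of 108, and *Slc6a11* with a score of 92. The enzymes of glutamate and GABA metabolism had 5 of 7 bound (71.4%, 29% to 96.3%), where their class shares give 2.83. They included the glutamine synthetase gene *Glul* (score 268), the GABA-synthesising *Gad2* (score 103), the glutaminase *Gls2* (score 27) and the GABA-degrading *Abat* (score 47). None of the 2 GABA-B receptor genes or the 5 glycine receptor genes was bound, where class shares give 0.854 and 0.552. Side by side with the 45 receptor genes, other ligand-gated channels had 4 of 30 bound (13.3%, 3.76% to 30.7%), where class shares give 4.33, and the alpha subunits of voltage-gated channels 20 of 62 (32.3%, 20.9% to 45.3%), where they give 16.3. These intervals overlap that of the receptor genes, 6.49% to 29.5%.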

How the data were processed

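KDM5C ChIP-Seq was measured in WT and KO XΔTsixY EpiLCs, 1 immunoprecipitate and 1 input per genotype, grouped by title. The authors aligned reads to mm9 with Bowtie (1.1.2 in the submitters' processing notes; the methods name another version), kept unique reads and called peaks with MACS2 2.1.0.20140616 against input. For each peak the authors deposited a score, a fold enrichment (ratio of immunoprecipitate to input), the −log10 of the p-value, the −log10 of the q-value and the summit offset. The study states a minimum depth per sample, but the lists hold no read counts, and the reads behind each peak are unknown here. In addition, unique mapping can lose peaks in repeats. Calling WT peaks on merged replicates can give WT more peaks. Scores were not compared between lists.

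Peaks on chromosomes 1 to 19, X and Y were assigned to the 22367 protein-coding genes of GENCODE M1 on NCBIM37 (mm9) with Python 3.11.15, NumPy 2.4.6 and SciPy 1.17.1. The 17 WT and 3 KO peaks on contigs were left out. CpG ratio was computed in 500 bp on either side of each TSS, in classes of 0.2. The count given by class shares sums, over the receptor genes, the bound share of all other genes in the class. No test was made, since each group is 1 list. The assignment was tested on simulated data.

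The receptor genes, the list of 65 genes and the comparisons were chosen with earlier results of these data known, and the comparison of inner peaks was added after seeing the data. By rule, every receptor gene was to be named with its call, bound genes with their peaks, unbound genes by range with the 5 of highest CpG ratio, and listed genes where bound. Some genes are counted in the totals but not reported here by name. Alternatives were the distance limit, the start sites used, the score minimum, 1 further gene added by its symbol, the CpG measure, and leaving out X or a group of neighbouring GABA-A genes.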

Additional observations from a re-analysis of the deposited data

How the results depend on the processing

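Of 54 alternative values of 7 results, 38 stayed close to the value reported and 16 moved, by over 1.5 times or, for the share of other genes, beyond its counting interval. The count of bound receptor genes was 5 with a 500 bp limit, 4 with scores at or above the WT median and 1 with scores at or above the 90th percentile (*Gabra4*). Without a group of neighbouring GABA-A genes, an alternative chosen after seeing the data, it was again 4, with 42 genes left. Every gene of that group was bound, so this fall was fixed by the choice. The bound share of other genes was 21.8% at 500 bp, 25.1% at 2 kb, 22% with the most upstream TSS alone, 13% at or above the median score and 2.79% at or above the 90th percentile. The count given by CpG class shares was 5.88 and 1.17 at these scores, and 9.79 to 11.7 under the other alternatives, above the observed count in each case. All of these alternatives reuse the same WT list, so none is a separate check of that comparison. The case without the GABA-A group also took out bound genes alone. Receptor genes with an inner peak numbered 1 (*Grin2c*) at or above the 90th percentile, and the count given by length class shares was 1.22 and 0.102 at the score minima, all chosen after seeing the data. Inner peaks over 5 kb from every TSS, and those at or above the median score, were each found in 5 receptor genes. At over 5 kb the length class shares give 1.87. With only the start sites of the gene itself, 7 receptor genes had an inner peak, where the length class shares give 3.16. The median score at bound receptor genes was 49 at 500 bp, 158 and 389 under the score minima, which act on the score itself, and 84 otherwise. No paired analysis was possible because a single peak list stood for each genotype. With 1 list per genotype and no read counts in it, a promoter with no peak cannot be told from one with binding under the detection limit.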
